A study of Mus musculus with 8 samples.

Results

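The genes described here encode nuclear subunits of respiratory complexes II, III, IV and V, and their expression was compared between hepatocellular carcinomas and adjacent liver of the same mice. Members were the genes whose array probe carried a single symbol that is Sdha, Sdhb, Sdhc or Sdhd, or that starts with Uqcr, Cox4, Cox5, Cox6, Cox7, Cox8 or Atp5. They numbered 46 of 19938 genes, with 4 for complex II, 8 for complex III, 17 for complex IV and 17 for complex V. The samples were 4 tumors and 4 pieces of adjacent liver from 4 male C57BL/6J mice, M24, M48, M50 and M60. All 4 mice had been injected with an AAV vector, a gene transfer vector made from adeno-associated virus, when 2 to 3 months old, and their livers were taken 18 months after the injection. The adjacent liver had therefore received the vector too, and uninjected liver was not analysed here. The sources used here do not name the vector's cargo. RNA of each sample was hybridised to 1 array, and levels are the authors' log2 values.

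Complex II, succinate dehydrogenase, oxidises succinate and passes the electrons to coenzyme Q. Complex III passes them on to cytochrome c, and complex IV, cytochrome c oxidase, transfers them to oxygen. Complex V, the ATP synthase, uses the proton gradient built up by the chain to make ATP. All subunits of complex II, and most of the others, are encoded in the nucleus, while the catalytic core of complex IV, cytochrome b of complex III and parts of the membrane domain of complex V come from mitochondrial DNA. The mitochondrially encoded subunits were not analysed here. Hepatocytes are rich in mitochondria, and their respiratory chain serves among other things urea synthesis, gluconeogenesis and fatty acid oxidation.

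Of the 46 members, 42 had a mean level above the filter value of 4.597 and were tested. Of these 42, 16 fell in the tumors by modest amounts, 26 did not pass the test and 0 rose. The differences of 38 were negative and those of 4 positive. A gene is said to fall or rise where its adjusted p in limma's test over all 11963 tested genes was under 0.05. Among all tested genes 15.7% were called lower and 16.3% higher, against 38.1% and 0 of the tested members (0 higher also at an unadjusted p under 0.05). The 39 members other than the tissue-restricted paralogs of complex IV had mean levels of 8.56 (Atp5k) or more, and 16 of these 39, or 41.0%, fell. Among the 2376 tested genes at or above that level, 26.1% were called lower. The count of 16 became 9 without M24, 14 without M48, 7 without M50 and 6 without M60. Over all tested genes the count called lower, 1874, became 1317, 1720, 1170 and 1071 in the same fits, each of which has fewer pairs.

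The median difference, tumor minus adjacent, was -0.26 log2 units over the 42 tested members, against 0.001 over all tested genes. For the 39 widely expressed members it was -0.28, a level 17.7% lower in the tumors. The members were not among the large changes of these tumors. The 16 falls had a median of -0.42, against -0.59 for all genes called lower, and 0 members fell by 2-fold or more, compared with 345 genes in all. The direction was shared widely: 30 of the 42 tested members were lower in all 4 mice, or 71.4%, against 25.3% of all tested genes. Higher in all 4 mice were 0 members, against 24.6% of all tested genes. Every tumor value lay below every adjacent value for 17 members, or 40.5%, against 15.6% of all tested genes. The shares and the median of all tested genes given in this paragraph were not restricted by level. The 26.1% above was restricted only by a lowest level of 8.56, so it was not matched to the members' levels either.

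**Figure D1:**
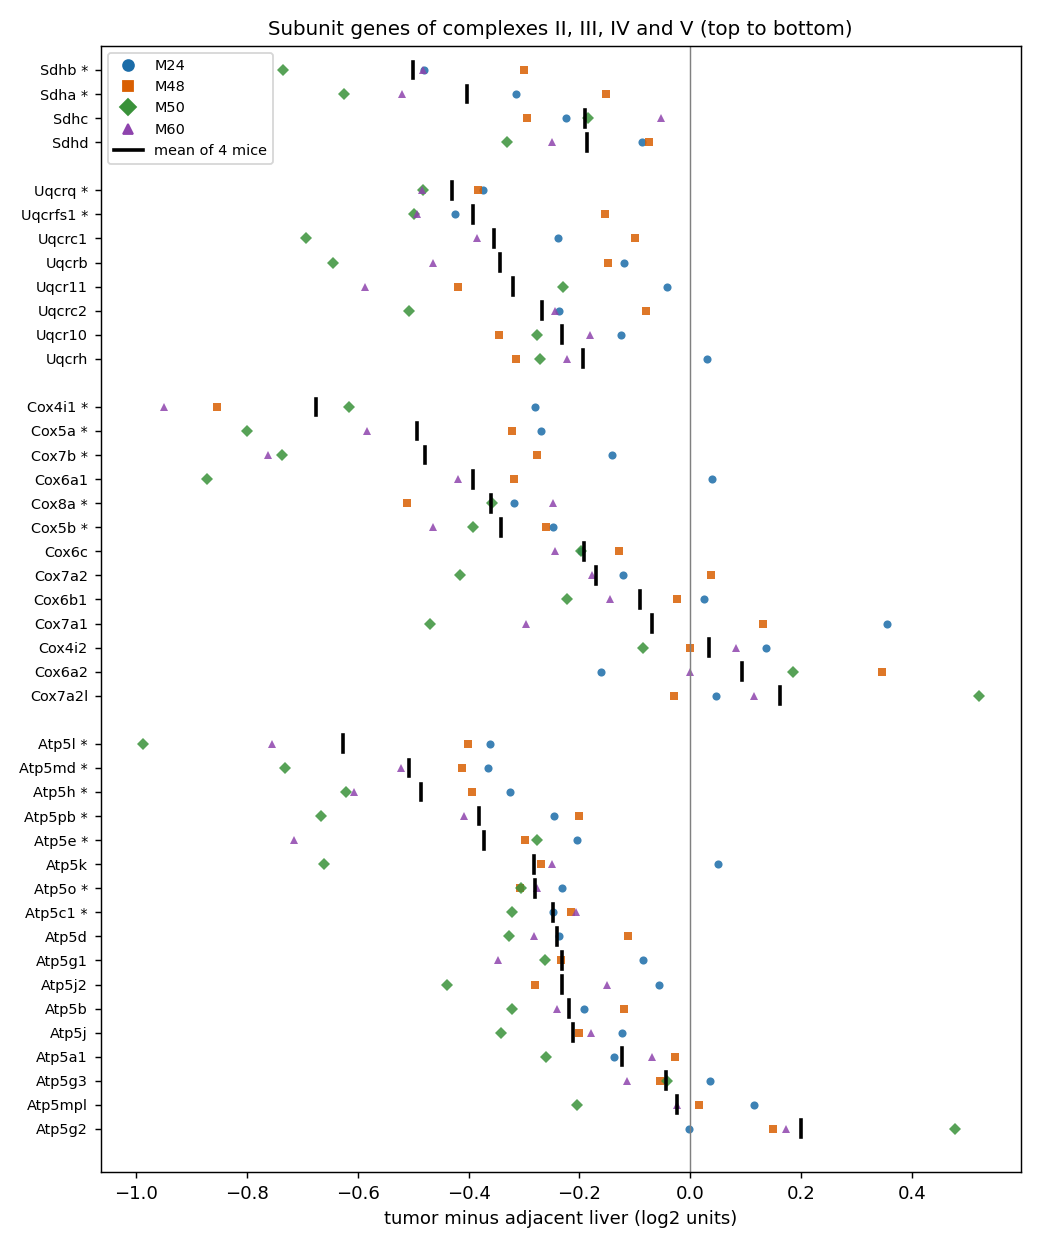
Difference between tumor and adjacent liver (horizontal axis, log2 units) for each of the 42 tested members, with 1 symbol per mouse, a black bar at the mean of the 4 mice, and complexes II, III, IV and V from top to bottom. An asterisk marks the 16 members that fell (adjusted p under 0.05), and the means run from -0.68 for Cox4i1 to 0.20 for Atp5g2.

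Averaged over the widely expressed subunits of a complex, the level was lower in each of the 4 tumors than in any of the 4 adjacent samples, in all 4 complexes. For the 4 genes of complex II the mean log2 levels in the tumors, in the order M24, M48, M50 and M60 that is kept below, were 10.28, 10.12, 10.15 and 10.26, against 10.56, 10.33, 10.62 and 10.59 in the adjacent liver of these mice. For the 8 genes of complex III they were 9.86, 9.69, 9.72 and 9.85 in the tumors, against 10.06, 9.93, 10.17 and 10.23 in adjacent liver. The adjacent liver of M48 was the lowest of the adjacent samples in every complex. Complex IV, averaged over 10 genes, stood at 10.24, 10.10, 10.11 and 10.18 in the tumors and at 10.38, 10.37, 10.52 and 10.57 in adjacent liver, in the same order of mice. Complex V, averaged over 17 genes, stood at 10.59, 10.48, 10.49 and 10.57 in the tumors and at 10.74, 10.68, 10.86 and 10.86 in adjacent liver. These averages are descriptions without a test.

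**Figure D2:**
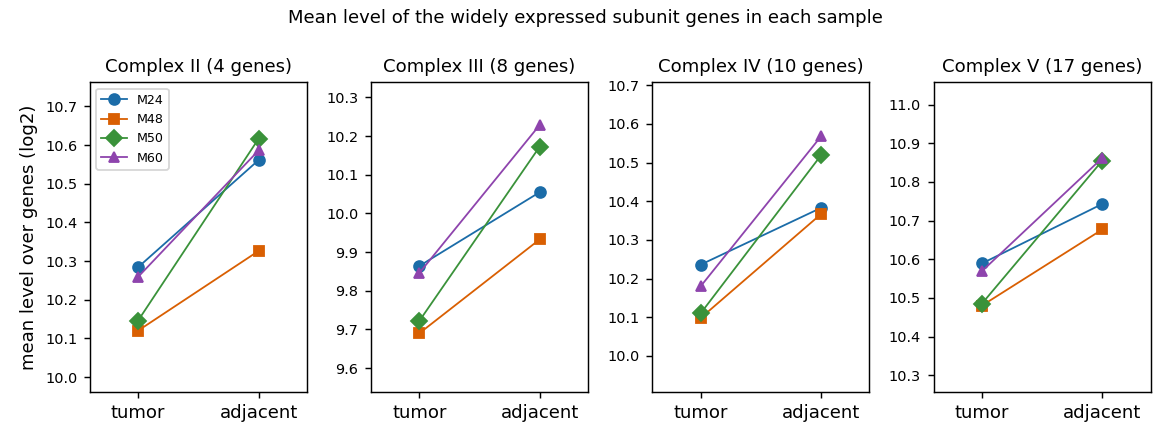
Mean log2 level over the widely expressed subunit genes of each complex (vertical axis) in tumor and adjacent liver, with lines joining the 2 samples of a mouse. In each panel the 4 tumor values lie below the 4 adjacent values, and the adjacent value of M48 is the lowest of its group.

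Differences were larger in M50 and M60 than in M24 and M48. Over the 42 tested members the medians of M24 and M48 were -0.18 and -0.21, and those of M50 and M60 were -0.35 and -0.26. Of the 39 widely expressed members, 23 had their most negative difference in M50, 9 in M60, 6 in M48 and 1 in M24. The medians by complex kept the same sign in every mouse. In M50 they were -0.48 for complex II, -0.49 for complex III, -0.39 for complex IV and -0.32 for complex V. In M24 the 4 medians were -0.27, -0.18, -0.14 and -0.19, in the same order. The tested genes of complex IV include 3 tissue-restricted paralogs at low levels. Without these and Cox7a2l, the median over the other 9 genes was -0.36, against -0.19 over all 13. Cox7a2l, which is counted among the 39 widely expressed members, had a positive difference of 0.16, so leaving it out lowers the median.

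In complex II the catalytic subunits fell and the membrane anchors did not pass the test. Sdhb, the iron-sulfur subunit, had log2 levels of 9.32, 9.13, 9.09 and 9.27 in the 4 tumors, against 9.80, 9.43, 9.83 and 9.75 in adjacent liver. The groups did not overlap, and the tumor of every mouse was lower by 0.30 to 0.74. Sdhb fell by 0.50 (SE 0.0941, n = 4 pairs, adjusted p = 0.00888 by limma). Sdha, the flavoprotein that binds succinate, had 11.41, 11.21, 11.21 and 11.21 in the tumors, against 11.72, 11.36, 11.83 and 11.73 in adjacent liver. The tumor of M24 overlapped with the adjacent liver of M48. The fall of Sdha was 0.40 (SE 0.103, adjusted p = 0.0261 by limma), and its call was lost without M24, M50 or M60, where the highest adjusted p was 0.116. The anchors Sdhc and Sdhd, which hold the enzyme in the inner membrane, differed by -0.19 in both cases (adjusted p = 0.121 and 0.141). Both anchors were lower in all 4 mice. Whether catalytic subunits and anchors differ from each other was not tested.

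In complex III, 2 of 8 members fell, or 25.0%, a share near the 26.1% among tested genes at or above a level of 8.56. All 8 had negative differences, and 7 were lower in all 4 mice. Uqcrq, a small subunit beside cytochrome b, had levels of 9.45, 9.48, 9.27 and 9.57 in the tumors, against 9.82, 9.86, 9.75 and 10.06 in adjacent liver. Its tumor and adjacent ranges were separate, and the difference hardly varied between mice, from -0.48 to -0.38. Uqcrq fell by 0.43 (SE 0.0751, adjusted p = 0.00673), which was the smallest p of all members. The Rieske iron-sulfur protein Uqcrfs1, which carries electrons towards cytochrome c1, stood at 8.68, 8.76, 8.93 and 8.75 in the tumors, against 9.10, 8.92, 9.43 and 9.24 in adjacent liver. It fell by 0.39 (SE 0.091, adjusted p = 0.0185), its groups overlapped only through the tumor of M50 and the adjacent liver of M48, and the call was lost without M24, M50 or M60. The core protein Uqcrc1 lay just beyond the threshold at -0.35 (adjusted p = 0.0528, and 0.0344 with no replicate block), with no overlap between the groups. The other core protein Uqcrc2 stood at -0.27, and the small subunits Uqcrb, Uqcr11, Uqcr10 and the hinge protein Uqcrh ran from -0.34 to -0.19, with adjusted p-values from 0.059 to 0.148. Cytochrome c1 (Cyc1), a catalytic subunit of complex III that the member rule leaves out, fell by 0.32 (adjusted p = 0.0339). Cytochrome c (Cycs) differed by -0.23 (adjusted p = 0.155).

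The largest decrease of any member was that of Cox4i1, the widely expressed form of subunit 4 of cytochrome c oxidase. Its levels were 10.45, 10.15, 10.42 and 10.19 in the tumors, against 10.73, 11.01, 11.04 and 11.14 in adjacent liver. The groups were separate, with the smallest difference in M24 at -0.28 and the largest in M60 at -0.95. Cox4i1 fell by 0.68 (SE 0.124, adjusted p = 0.00809), which leaves 62.6% of the adjacent level. A further 4 subunits fell: Cox5a by 0.49 (adjusted p = 0.016), Cox7b by 0.48 (adjusted p = 0.0309), Cox8a by 0.36 (adjusted p = 0.0173) and Cox5b, which binds zinc, by 0.34 (adjusted p = 0.0204). These 5 of 13 tested members of complex IV make 38.5%, against 15.7% of all tested genes and 26.1% of those at or above a level of 8.56. In each of the 5 the tumor values all lay below the adjacent values, again 38.5% of the 13, against 15.6% of all tested genes at any level. Cox5a had 9.63, 9.49, 9.13 and 9.43 in the tumors, against 9.90, 9.81, 9.93 and 10.01 in adjacent liver. Its call was lost without M60 (adjusted p = 0.0718). The calls of Cox7b, Cox8a and Cox5b were lost without M50 or M60, and those of Cox8a and Cox5b also without M24.

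The remaining widely expressed subunits of complex IV did not pass. Cox6a1 stood at -0.39 (adjusted p = 0.0852), with values from -0.87 in M50 to 0.04 in M24. Cox6c stood at -0.19, Cox7a2 at -0.17 and Cox6b1, which faces the intermembrane space, at -0.09 (adjusted p = 0.443). Cox7a2l, also known as SCAF1, links complexes III and IV into supercomplexes, and the C57BL/6J strain carries a shortened, unstable form of it. It was 1 of the 4 tested members with a positive difference, at 0.16 (SE 0.11, adjusted p = 0.303). Its levels were 9.80, 9.85, 10.28 and 9.92 in the tumors, against 9.75, 9.88, 9.75 and 9.80 in adjacent liver. The tumor of M50 was high, and the other samples overlapped.

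Tissue-restricted paralogs of complex IV subunits had low levels in both tissues, close to or under the filter value. Cox4i2, the lung form of subunit 4, averaged 4.80 ± 0.0913 in tumors and 4.76 ± 0.147 in adjacent liver (SD, n = 4 each), and its difference of 0.03 turned to -0.02 when arrays were rescaled by quantiles or medians. The heart and muscle forms Cox6a2 and Cox7a1 had means of 5.28 and 5.09 in tumors, against 5.19 and 5.15 in adjacent liver, with adjusted p-values of 0.573 and 0.763. Cox8b, Cox8c, Cox6b2 and Cox7b2, which are known from muscle or testis, had mean levels under the filter value and were not tested. Of the skeletal muscle markers, 5 of 8 lay above the filter, 0 rose and 1, Mylpf, fell, and the sum of the linear values of all 8 was 194 to 212 in tumors and 198 to 215 in adjacent liver.

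In complex V, 7 of 17 members fell, or 41.2%, against 15.7% of all tested genes and 26.1% of those at or above a level of 8.56. In 9 members, or 52.9%, the tumor values all lay below the adjacent values, against 15.6% of all tested genes, a share not restricted by level. The 7 falls took in 3 of 4 genes of the peripheral stalk and 2 of 5 membrane subunits. They also took in 2 of 5 genes of the head and central stalk, and 0 of 3 of the c-ring. Whether these small classes differ from one another was not tested. Atp5l, subunit g, which takes part in the dimers that shape the cristae, had levels of 9.72, 9.69, 9.20 and 9.53 in the tumors, against 10.09, 10.10, 10.19 and 10.29 in adjacent liver. The groups were well apart, and the tumor of M50 was the lowest. Atp5l fell by 0.63 (SE 0.124, adjusted p = 0.0105). Its 5 further probes gave differences from -0.71 to -0.66, but whether these probes read separate sequences was not tested. Atp5md, a small membrane subunit also called DAPIT, had 10.73, 10.50, 10.49 and 10.70 in the tumors, against 11.10, 10.91, 11.22 and 11.22 in adjacent liver. It fell by 0.51 (SE 0.0916, adjusted p = 0.00765), again without overlap of the groups. Of the other membrane subunits, Atp5k (e) stood at -0.28, Atp5j2 (f) at -0.23 and Atp5mpl at -0.02, and none passed.

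The peripheral stalk, which keeps the catalytic head from turning, had 3 of its 4 members among the falls. Atp5h, subunit d of the stalk, had 10.81, 10.63, 10.56 and 10.69 in the tumors, against 11.14, 11.02, 11.18 and 11.30 in adjacent liver. The highest tumor was below the lowest adjacent sample. Atp5h fell by 0.49 (SE 0.0891, adjusted p = 0.00801). Atp5pb, subunit b, fell by 0.38 (adjusted p = 0.031) and Atp5o, which joins the stalk to the head, by 0.28 (adjusted p = 0.0283), while Atp5j, coupling factor F6, stood at -0.21 (adjusted p = 0.0909). The call of Atp5pb was lost without M24, M50 or M60, and that of Atp5o without any 1 of the 4 mice. Among the 5 genes of the catalytic head and central stalk all were lower in all 4 mice, and 2 fell. These were Atp5e by 0.37 (adjusted p = 0.0372) and Atp5c1, the rotating gamma subunit, by 0.25 (adjusted p = 0.0493). Both calls were lost without any 1 of the 4 mice, and that of Atp5e also without the filter on low levels (adjusted p = 0.0542). The call of Atp5c1 was lost in 9 of 10 alternatives, with an adjusted p = 0.0577 with no replicate block and a highest adjusted p of 0.156. The alpha and beta subunits that form the catalytic sites, Atp5a1 and Atp5b, stood at -0.12 (adjusted p = 0.307) and -0.22 (adjusted p = 0.089), and the delta subunit Atp5d at -0.24 (adjusted p = 0.0615). Atp5b had the highest level of all members, with 12.16, 12.13, 12.16 and 12.12 in the tumors, against 12.36, 12.25, 12.48 and 12.36 in adjacent liver.

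The 3 genes of the c-ring, the rotor that protons drive, did not pass and did not share a direction. Their proteins are imported with different leader peptides and give the same mature subunit c. Atp5g2 had 10.46, 10.67, 10.95 and 10.70 in the tumors, against 10.46, 10.52, 10.47 and 10.52 in adjacent liver, a difference of 0.20 (SE 0.0994, adjusted p = 0.176), and its other probes gave 0.20 and 0.21. The tumors of M48, M50 and M60 were above all adjacent samples, and that of M24 was just below the lowest of them. Atp5g1 stood at -0.23 (adjusted p = 0.0717) and was lower in all 4 mice, and Atp5g3 at -0.04 (adjusted p = 0.71). The difference of Atp5g1 minus that of Atp5g2 was -0.08, -0.38, -0.74 and -0.52 in the 4 mice, with a mean of -0.43 ± 0.275 (SD, n = 4). An exact two-sided sign-flip permutation test gave p = 0.125, the smallest that 4 pairs allow. The same was computed for 6 paralog pairs in all, none of which could pass.

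**Figure D3:**
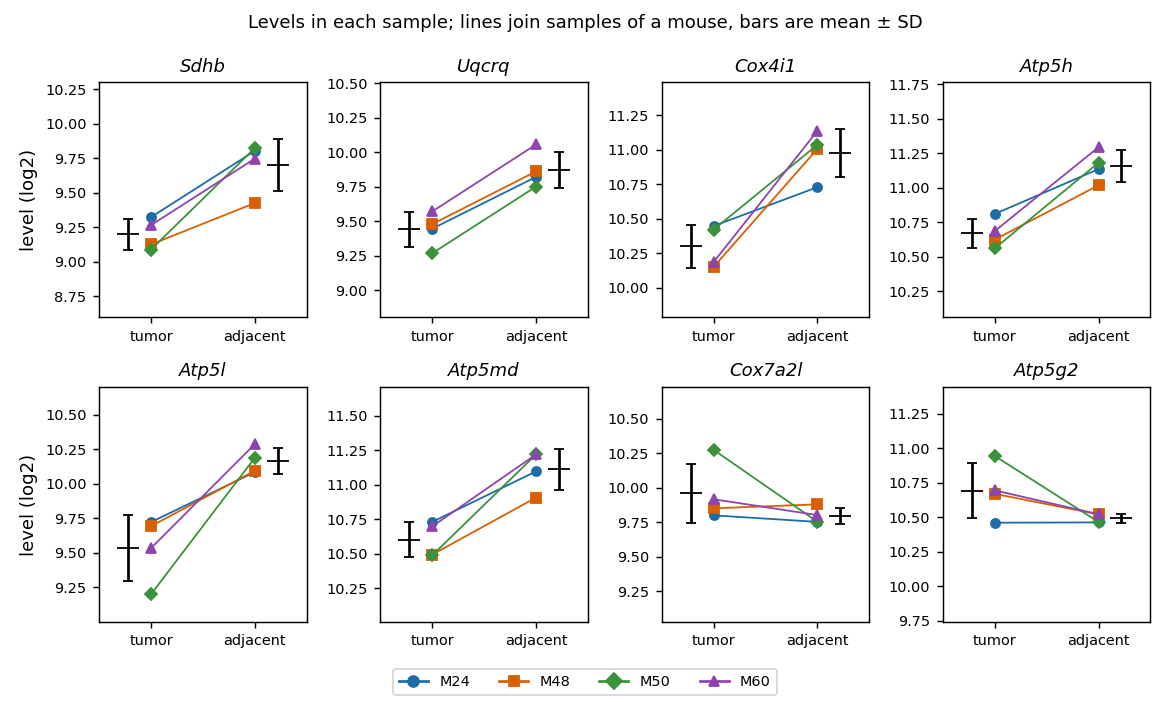
Log2 levels (vertical axes, each spanning the same width) of 8 members in tumor and adjacent liver, with 1 line per mouse and the mean ± SD of each group beside the points. Sdhb, Uqcrq, Cox4i1, Atp5h, Atp5l and Atp5md show lower values in all 4 tumors, while Cox7a2l and Atp5g2 are highest in the tumor of M50.

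Promoter sequences are shown for 3 members whose values differ in direction, because nuclear respiratory genes are known to be driven through sites of NRF1, of ETS factors such as GABP and of ERR receptors. Of the 42 tested members, 32 had a promoter window in the RefSeq set of build GRCm38.p6, which covers 250 bases before to 50 after the gene start. The windows were searched on both strands for the NRF1 motif GCGCATGCG, for its form with 1 free base GCGCNTGCG, which includes the first, for the ETS motif CCGGAAGT and for the ERR motif TNAAGGTCA. The sequences below are the 250 bases before the start, 5′ to 3′ in the direction of the gene, with motif matches in capitals. Sdha lies on the minus strand at chr13:74350241-74350490, Atp5h on the minus strand at chr11:115419920-115420169 and Atp5g2 on the minus strand at chr15:102671048-102671297.
Sdha: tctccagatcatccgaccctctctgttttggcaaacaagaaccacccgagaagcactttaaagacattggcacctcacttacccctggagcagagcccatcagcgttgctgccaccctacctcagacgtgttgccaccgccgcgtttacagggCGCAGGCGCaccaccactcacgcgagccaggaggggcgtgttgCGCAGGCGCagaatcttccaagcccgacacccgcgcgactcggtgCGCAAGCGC
Atp5h: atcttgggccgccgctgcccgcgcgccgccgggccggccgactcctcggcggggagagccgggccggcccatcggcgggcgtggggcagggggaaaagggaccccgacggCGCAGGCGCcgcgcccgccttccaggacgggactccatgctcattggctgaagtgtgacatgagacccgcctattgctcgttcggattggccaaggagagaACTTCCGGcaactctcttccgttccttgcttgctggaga
Atp5g2: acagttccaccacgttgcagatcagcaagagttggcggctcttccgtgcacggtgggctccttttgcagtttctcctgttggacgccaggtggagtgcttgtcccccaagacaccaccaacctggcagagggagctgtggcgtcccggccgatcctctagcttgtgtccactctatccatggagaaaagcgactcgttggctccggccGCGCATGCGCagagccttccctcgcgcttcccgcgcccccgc

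Upstream of its start Sdha held 3 matches to the NRF1 form with 1 free base, and Atp5h held 1 such match and 1 ETS match. Atp5g2, whose difference was positive, held the NRF1 motif on both strands at overlapping places. Of the 32 members with a window, 15 (46.9%) had the NRF1 form with 1 free base, against 14.6% of 9555 tested genes with a window. The NRF1 motif itself was found in 6 members, Atp5g2, Atp5k, Atp5l, Cox6a1, Uqcr11 and Uqcrc1, or 18.8%, against 3.9% of tested genes. Of these 6, Atp5l fell. The ETS motif was found in 4 members, Atp5h, Cox8a, Uqcr11 and Uqcrh (12.5% against 8.57%), and the ERR motif in Atp5g3 and Sdhd (6.25% against 1.0%). Among the 14 members that fell and had a window, 6 held the NRF1 form with 1 free base, against 15 of all 32 members with a window. The ETS motif was held by 2 of the 14 and the ERR motif by 0. These are matches of letters and were not tested.

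Other genes of the respiratory system were read from the same fit. Complex I, the NADH dehydrogenase, was read from 35 tested genes named Nduf. Of these, 18 fell, or 51.4%, and 0 rose, with a median of -0.30, close to the median of the members. The 18 include Ndufa4 (-0.52, adjusted p = 0.00953 by limma), which has been assigned to complex IV. The smallest p-values of the list were those of Ndufb8 (-0.64), Ndufv1 (-0.62) and Ndufb7 (-0.49). In the TCA cycle, which feeds succinate and NADH into the chain, 6 of 13 genes fell, or 46.2%, and 0 rose. Fumarase (Fh1), which uses the product of complex II, fell by 0.71 (adjusted p = 0.00598), the isocitrate dehydrogenase Idh2 by 0.54 (adjusted p = 0.00593) and the succinyl-CoA ligase subunit Suclg2 by 0.59 (adjusted p = 0.0102). In the mitochondrial ribosome 9 of 77 genes fell and 3 rose, with a median of -0.06, and the 11.7% lower was under the background of 15.7% over all tested genes. The lists were not matched for level, and the mitochondrial ribosomal genes mostly had lower levels than those of complex I and the TCA cycle. Whether the lists differ from one another was not tested.

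Factors that assemble or supply complexes II to V went both ways. Over all tested genes 15.7% were called lower and 16.3% higher. Of 35 tested assembly factors 8 fell, or 22.9%, and 4 rose, with a median of -0.12. Fmc1, an assembly factor of ATP synthase, fell by 1.01 (adjusted p = 0.00182), Surf1, needed for complex IV, by 0.44 (adjusted p = 0.00793) and Uqcc3 of complex III by 0.44 (adjusted p = 0.0151). The factors that rose were Cox17, Coa3, Lrpprc and Atpaf1. In coenzyme Q synthesis and handling 3 of 12 genes fell, or 25.0%, and 1 rose. Coq10a fell by 1.19 (adjusted p = 0.000444) and Coq8a by 0.98 (adjusted p = 0.00325), while the related kinase-like gene Coq8b rose by 1.04 (adjusted p = 0.00123). The list of membrane, import and chaperone genes had 3 falls, or 15.0%, and 2 rises among 20, with a median of -0.02. The ADP/ATP carrier Slc25a4 rose by 0.80 (adjusted p = 0.00452), and the cristae and fusion protein Opa1 fell by 0.50 (adjusted p = 0.00612) and the inner membrane protein Letm1 by 0.70 (adjusted p = 0.00655).

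**Figure D4:**
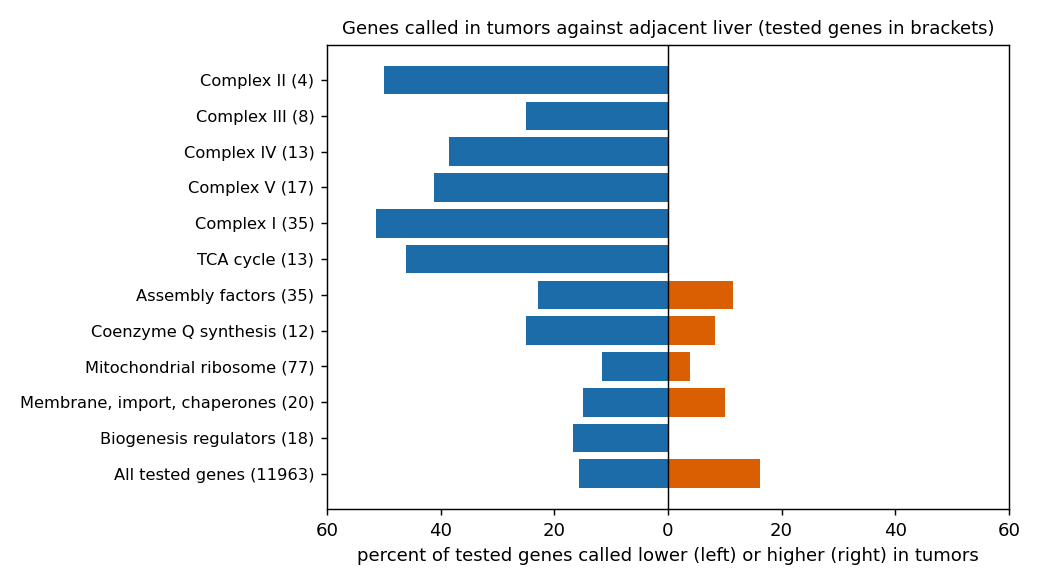
Percent of tested genes called lower (left, blue) or higher (right, orange) in tumors for complexes II to V, for related gene lists and for all tested genes, with the number tested in brackets. The member complexes range from 25.0% lower for complex III to 2 of 4 genes for complex II, with 0 higher. Over all tested genes 15.7% were lower and 16.3% higher. The share among tested genes at or above a level of 8.56, 26.1% lower, is not drawn.

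Regulators of mitochondrial gene expression showed 3 falls and 0 rises among 18 tested genes, and 16.7% fell against 15.7% of all tested genes. Their differences were mostly negative, in 16 of 18 genes with a median of -0.19, and 44.4% were lower in all 4 mice against 25.3% of all tested genes. The mitochondrial DNA polymerase subunit Polg2 fell by 0.74 (adjusted p = 0.0141), the helicase Twnk by 0.45 (adjusted p = 0.0196) and the nuclear receptor Ppara by 0.29 (adjusted p = 0.0271). The coactivator Ppargc1a stood at -0.53 (adjusted p = 0.119), with differences of 0.08, -1.01, -1.11 and -0.08 in the 4 mice. Nrf1 stood at -0.17, Gabpa at -0.18, Esrra at -0.05 and the mitochondrial transcription factor Tfam at -0.17, and none of them passed, with adjusted p-values from 0.155 to 0.685.

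The tissue pieces were mixtures, so fewer cells of a type and less RNA per cell cannot be told apart. Of 8 tested hepatocyte markers, Apoa1 rose and Apoa2 fell, with a median of 0.003, and the sum of their linear values, which undo the log2 scale, was 87705 to 98033 in tumors and 89844 to 95855 in adjacent liver. The mean levels of these markers were 12.85 to 13.91, near the highest value on any array, 14.49. Whether they follow the share of hepatocytes was not tested, so they are not taken as a measure of it. Some markers of other cells were higher in the tumors. Of 10 stellate cell and fibroblast markers 5 rose, the collagens Col1a1, Col1a2 and Col3a1 with Pdgfrb and Acta2, and 0 fell (summed values 4400 to 5649 in tumors and 2529 to 5316 in adjacent liver), and of 8 endothelial markers Pecam1, Kdr and Lyve1 rose and 0 fell (2260 to 3130 in tumors and 1816 to 2223 in adjacent liver). Of 6 tested cholangiocyte markers Krt19, Sox9, Prom1 and Cldn7 rose and 0 fell (423 to 764 in tumors and 224 to 309 in adjacent liver), with Cftr below the filter. Of 8 macrophage markers Cd68 rose, and Clec4f, Marco and Timd4, known from Kupffer cells, fell, with sums of 2111 to 5950 in tumors and 1459 to 6502 in adjacent liver, both highest in M48. Of 4 tested lymphocyte markers 0 passed by limma, although Nkg7, Cd3g and Cd8a had unadjusted p-values of 0.0213 to 0.0354 (sums of 191 to 696 in tumors and 144 to 203 in adjacent liver), and Cd4, Cd79a and Ms4a1 lay below the filter. The part of these cells in the differences of the respiratory genes was not tested. Of 6 tested brown fat markers Fabp4 rose and Elovl3 fell, with Ucp1 and Adipoq below the filter and sums of 429 to 680 in tumors and 586 to 3519 in adjacent liver. Elovl3 had the largest difference of this list, with mean levels of 4.77 in tumors and 8.80 in adjacent liver, and weighs heavily in these sums. Whether they follow brown fat was not tested, so they are not taken as a measure of it.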

How the data were processed

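Affymetrix mouse gene arrays of 4 tumors and 4 adjacent liver samples were analysed. The authors deposited log2 values for 28874 probes with 0 missing values, whose base was taken from their range. Per the submitters' processing notes MAS5 was used, with no role given. MAS5 relies on mismatch probes, which this kind of array lacks, so how these log2 values were summarised is uncertain. Background correction, normalization, detection calls and scan dates are in none of these sources. Array medians of 4.888 to 5.006 led to the values being used without further scaling.

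Probes with 1 symbol in the platform annotation (21789) gave 19938 genes, each by its probe with the highest mean. The lowest 40% of means were left out. All 46 members matched RefSeq gene identifiers, and 12 had several probes. Tumor minus adjacent was fitted with limma 3.58.1 in R 4.3.3 (lmFit, eBayes with trend, mouse as a block, Benjamini-Hochberg over 11963 genes, two-sided, 3 residual and 3.643 prior degrees of freedom). The block follows the design text, which takes both tissues from each mouse. Deviations from the group means correlated at 0.0986 to 0.421 within mice and at -0.378 to 0.189 between mice. Precision is limited by the small number of arrays. The script was tested on simulated data. Members and lists were chosen with earlier results of these data known. The mitochondrial ribosomal list, the subunit classes and the motifs were added after the data were seen. A first motif search had used NRF1 motifs longer by 1 base, which matched fewer promoters. Genes named are, per complex, the 3 smallest p-values, the extremes, the listed paralogs and further members, and up to 3 per other list, with 5 regulators fixed by name. Other lists' genes beyond these were named after their values were seen. Alternatives covered the block, each mouse, the filter, the trend, 2 scalings and the mean of probes.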

Additional observations from a re-analysis of the deposited data

Results flagged for a closer look

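For each of the 42 tested members the 4 differences, the 4 tumor levels and the 4 adjacent levels were checked for a sample far from the others, and so were the median differences of the 4 complexes. In all 130 groups of 4 values were checked, and 4 held a sample whose gap to its nearest neighbour was too large a part of the range by Dixon's criterion. Chance gives about 1 in 20 such groups. The tumor of M24 had a Sdha level of 11.406, against 11.205 to 11.208 in the other tumors. The adjacent liver of M48 had a Sdhd level of 10.126, against 10.327 to 10.367 in the others. The adjacent liver of M60 had a Uqcr10 level of 8.853, against 8.601 to 8.626. The tumor of M60 had a Cox4i2 level of 4.66, against 4.832 to 4.858, close to the filter value.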

How the results depend on the processing

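In all, 10 alternatives were run. Of the 16 falls, 6 kept their call in all 10: Sdhb, Uqcrq, Cox4i1, Atp5h, Atp5l and Atp5md. Leaving out 1 mouse gave 6 to 14 falls among the members, with 1 to 2 in complex II, 1 to 3 in III, 1 to 5 in IV and 3 to 4 in V. Over all genes it gave 1071 to 1720 lower and 1238 to 1759 higher. With no replicate block 16 members fell, 15 of them shared with the paired fit, and Atp5c1 was lost and Uqcrc1 gained. Atp5c1 was also lost without the filter (adjusted p = 0.0684), without the trend (0.059), with quantile scaling (0.0828) and with the mean of probes (0.0514). Without a filter 14 fell, without the trend 15, with quantile scaling 16 and with the mean of probes 16. Centring arrays on their medians moved the median of all genes to -0.055 and gave 21, with 6 in complex III in place of 2. No member rose in any alternative. Members near 0 changed sign: Cox4i2 was -0.017 by quantiles, -0.022 by medians and -0.001 to 0.073 without 1 mouse, Atp5mpl 0.033 by quantiles and -0.071 to 0.036 without 1 mouse, and Cox7a1 -0.211 to 0.064 without 1 mouse. The causes were not tested. Detection above background was not given, so levels near the filter value cannot be told from background.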

Other observations

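Cox7c, a further subunit of cytochrome c oxidase, was measured by 3 probes whose annotation also names Gm12338, so it was no member. These probes gave differences of -0.27, -0.25 and -0.29, and each was lower in the tumor of all 4 mice, from -0.08 in M24 to -0.50 in M60. The signal of the copies cannot be separated. The 12 members with several probes agreed on direction, and the largest spread between probes of a gene was 0.1 for Uqcr11. Whether any of these probes, the chosen ones included, reads copies of a gene was not checked. Their agreement is therefore not independent support.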
